A study of Mus musculus with 19 samples.

Results

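The mitochondrial ribosomal protein genes are the nuclear genes whose RefSeq symbol is Mrpl or Mrps and a number. Symbols were matched to the accessions of the array's probes, and a gene entered if 6 or more arrays read one of its probes as well above background. All 78 genes with a probe entered, through 101 probes, of 25599 genes tested in all. Of these, 51 encode proteins of the large subunit of the mitochondrial ribosome and 26 proteins of the small subunit. The remaining gene, Mrps36, carries a ribosomal name but encodes a subunit of the 2-oxoglutarate dehydrogenase complex.

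Hippocampal RNA was measured in 19 mice of 8 months, taken as 1 mouse per array. The groups were APP/PS1 mice given urolithin A (UA, n = 6), APP/PS1 mice given vehicle (n = 7) and wild-type (WT) littermates given vehicle (n = 6). UA, a compound that gut bacteria make from dietary ellagitannins, was given by gavage at 200 mg per kg per day in DMSO, starting at 6 months. All groups received DMSO, and no WT mice on UA were analysed here. APP/PS1 mice carry mutant transgenes for the amyloid precursor protein and presenilin 1, and deposit amyloid from overexpressed protein, which limits them as a model of disease. The labels do not name the line or its promoter. Prnp, the prion protein gene from which the vector of widely used APP/PS1 lines was built, averaged 8.04 ± 0.23 in UA mice, 8.06 ± 0.15 in APP/PS1 vehicle mice and 6.38 ± 0.12 in WT mice (SD, n = 6, 7 and 6). Every level here is the log2 of the processed signal minus that array's 75th percentile, so 1 unit is a doubling, and levels of different probes were not compared.

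Mitochondria carry their own ribosome, which descends from a bacterial one and makes only the few respiratory chain proteins that mitochondrial DNA encodes. Its protein subunits are all encoded in the nucleus, made in the cytosol and imported, and the mitochondrial genome supplies its RNA. Animals have added many subunits with no bacterial counterpart, and neurons, with their high demand for ATP, rely on the proteins this ribosome makes. UA is known for stimulating mitophagy, the removal of damaged mitochondria.

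Array brightness, taken as the 75th percentile of the signal, lay between 664 and 1776, and no spot was saturated. The lowest, 664, was that of APP/PS1 vehicle replicate 3. On that array 51.4% of probes were well above background, against 54.2 to 59.4% on the others. UA mice were on slide 2 (3 arrays) and slide 3 (3 arrays), APP/PS1 vehicle mice on slide 1 (2 arrays) and slide 2 (5 arrays), and all 6 WT mice on slide 1. Genotype and slide were therefore largely confounded. Sex, read from Xist and Y-linked genes, was female in 1 of 6 UA, 3 of 7 APP/PS1 vehicle and 1 of 6 WT mice. In bulk tissue, fewer cells of a type and less RNA per cell cannot be told apart. Between APP/PS1 vehicle and WT mice, 6 of 8 microglia markers and 3 of 7 astrocyte markers were higher past the threshold, and none of 7 neuron markers passed (limma, adjusted p under 0.05). The neuron markers had a median difference of -0.28, and all but Map2 were below 0. Their mean was 5.31 ± 0.16 in APP/PS1 vehicle mice and 5.54 ± 0.14 in WT mice (SD). The mean of 12 choroid plexus markers, a tissue next to the hippocampus, ran from -3.25 to 2.79 in UA mice, -4.83 to 3.34 in APP/PS1 vehicle mice and -2.67 to 2.75 in WT mice. Its median over arrays was 2.07 in UA, 1.94 in APP/PS1 vehicle and -1.99 in WT mice, so WT arrays mostly lay lower. None of the 12 passed in any comparison, and 5 of the 12 were well above background on every array.

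A pair of arrays stood apart from the rest by regions of deviating spots. On APP/PS1 vehicle replicate 3, 2820 spots (4.76% of the array) lay in a region where 37.2% of spots deviated from their median over arrays by more than 1 log2 unit, against 2.13% outside it. On WT replicate 1, 5098 spots (8.60%) lay in such regions, with 9.63% deviating inside and 0.724% outside. WT replicate 5 had a smaller region of 1747 spots (2.95%).

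Probes of Mrps9, Mrpl51, Mrpl19, Mrps21 and Mrpl15 fell in the region of APP/PS1 vehicle replicate 3. The same 5 genes, with Mrpl1 and Mrps31, fell in those of WT replicate 1. Mrps21, a small-subunit protein with a bacterial counterpart, read 1.55 on APP/PS1 vehicle replicate 3 against 3.95 to 4.12 on the other 6 arrays of that group. On WT replicate 1 it read 3.12, against 3.82 to 4.21 on the other WT arrays. A second, dimmer probe of Mrps21 gave a difference between APP/PS1 vehicle and WT of 0.18 ± 0.08 (SE), where the first gave -0.14 ± 0.33. The other 73 genes lay elsewhere on APP/PS1 vehicle replicate 3, and the family mean of that array was the highest of all 19. The main results that rest on these arrays are given with and without the spots or the arrays.

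**Figure D1:**
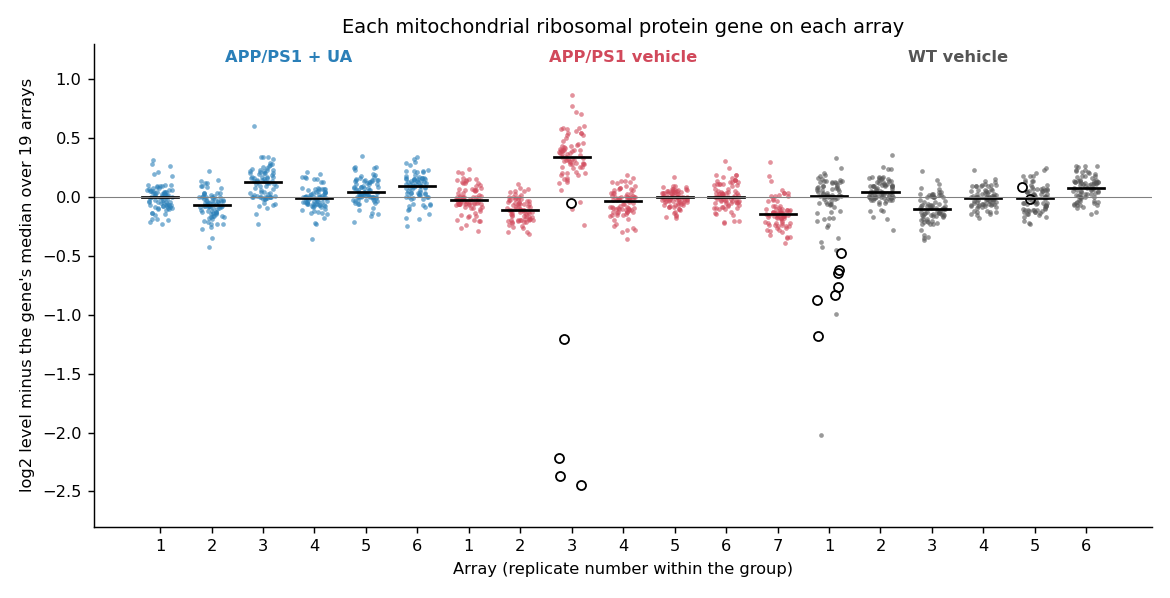
Level of each of the 78 genes on each array, as log2 level minus that gene's median over the 19 arrays (y axis), by array (x axis, replicate number) in APP/PS1 mice on UA, APP/PS1 mice on vehicle and WT mice. Black bars are array medians and open circles are spots in a deviating region. APP/PS1 vehicle replicate 3 sits above the others apart from 4 low spots, and WT replicate 1 has a tail of low spots.

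As a family, these genes differed little between groups. The mean over the 78 genes was 2.42 ± 0.07 in UA mice (lowest 2.32, median 2.42, highest 2.51), 2.38 ± 0.12 in APP/PS1 vehicle mice (2.25, 2.37, 2.62) and 2.37 ± 0.07 in WT mice (2.28, 2.38, 2.46). The 3 groups overlapped. Without the spots in the deviating regions the means were 2.42 ± 0.07 in UA mice, 2.39 ± 0.17 in APP/PS1 vehicle mice and 2.39 ± 0.06 in WT mice. Large-subunit genes averaged 2.41 ± 0.08, 2.37 ± 0.14 and 2.36 ± 0.08 in UA, APP/PS1 vehicle and WT mice, and small-subunit genes 2.43 ± 0.06, 2.39 ± 0.09 and 2.40 ± 0.07. The median of the genes' within-group SDs was 0.151, against 0.235 over all genes tested. It was 0.137 for assembly factors of this ribosome, 0.148 for its translation factors and 0.159 for nuclear oxidative phosphorylation genes. A spread below that of all genes was therefore not particular to the family. The highest family mean, 2.62, was on the array with the lowest choroid plexus mean, -4.83, and the lowest, 2.25, on the array with the highest, 3.34. Both were APP/PS1 vehicle arrays, and the first was replicate 3, the dimmest array, with a deviating region. The other arrays did not all follow this order. UA replicate 6 had a choroid plexus mean of 2.79 and a family mean of 2.48, and WT replicate 1 had -2.15 and 2.28. The part of choroid plexus tissue in the family mean was not tested.

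**Figure D2:**
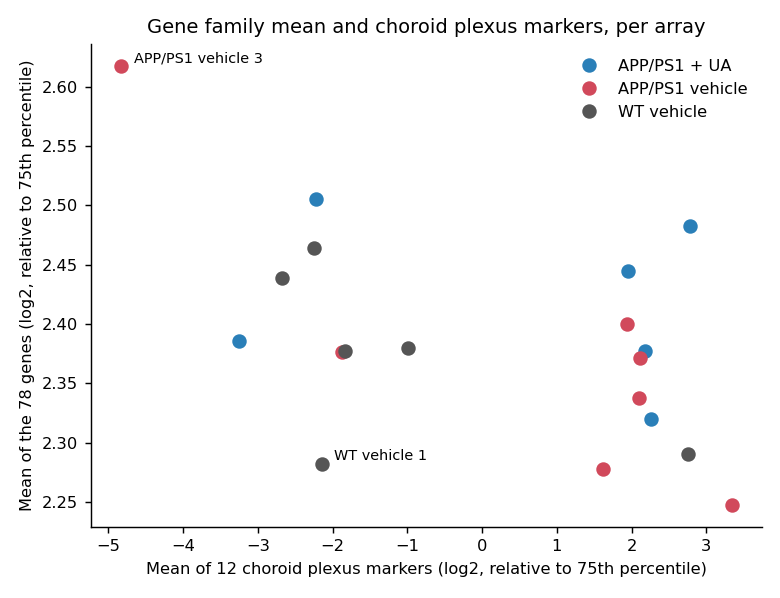
Mean level of the 78 genes (y axis) against the mean level of 12 choroid plexus markers (x axis), both log2 relative to the array's 75th percentile, with 1 point per array. Family means lie between 2.25 and 2.62 and overlap between the 3 groups. On the x axis the median array is at -1.99 in WT mice, against 2.07 in UA and 1.94 in APP/PS1 vehicle mice.

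APP/PS1 vehicle mice were compared with WT littermates to ask how the family differs with the amyloid transgenes. None of the 78 genes passed an adjusted p of 0.05 by limma. Over all genes tested, 5.03% passed, 2.86% as higher and 2.18% as lower. At an unadjusted p under 0.05 there were 7 of the 78 genes (8.97%), 5 higher and 2 lower, against 23.6% of all genes. With every array, 40 genes were above 0 and 38 below, with a median of 0.0002, against 0.01 over all genes. This balance turned on 1 array: without APP/PS1 vehicle replicate 3, 25 genes were above 0 and 53 below, with a median of -0.04. In that fit 14 of the 78 had an unadjusted p under 0.05, against 27.9% of all genes. Mrpl33 alone passed, against 6.27% of all genes. Without WT replicate 1 as well, 22 were above 0 and 4 of the 78 passed, all lower, against 5.48% of all genes. With slide as a block 22 were above 0, the median was -0.06 and none passed. The differences ran from -0.36 for Mrps9 to 0.45 for Mrpl57, and both ends rest on the deviating arrays, as without both arrays they were -0.15 ± 0.07 and 0.05 ± 0.08 (SE). The 95% confidence interval lay within 1.5-fold in either direction for 72 of the 78 genes, and within 2-fold for all 78. In this fit of every array with no slide term, no difference was detectable for most genes. A change beyond 1.5-fold was outside the interval for those 72. The intervals do not allow for differences between slides, and all WT arrays lay on slide 1.

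With every array, the subunits had similar medians. The median difference was 0.0015 for the 51 large-subunit genes, with 28 above 0, and -0.02 for the 26 small-subunit genes, with 11 above 0. These medians and those below include APP/PS1 vehicle replicate 3, where the large-subunit mean was 2.65 and the small-subunit mean 2.54. Large-subunit genes with a bacterial counterpart had a median of 0.0091 (30 genes) and mitochondria-specific ones -0.02 (21 genes). In the small subunit, genes with a bacterial counterpart had a median of -0.02 (16 genes) and mitochondria-specific ones -0.02 (10 genes). Mrpl3, a large-subunit protein of bacterial descent, was the gene nearest the family's median, at 0.0002 ± 0.08 (SE).

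**Figure D3:**
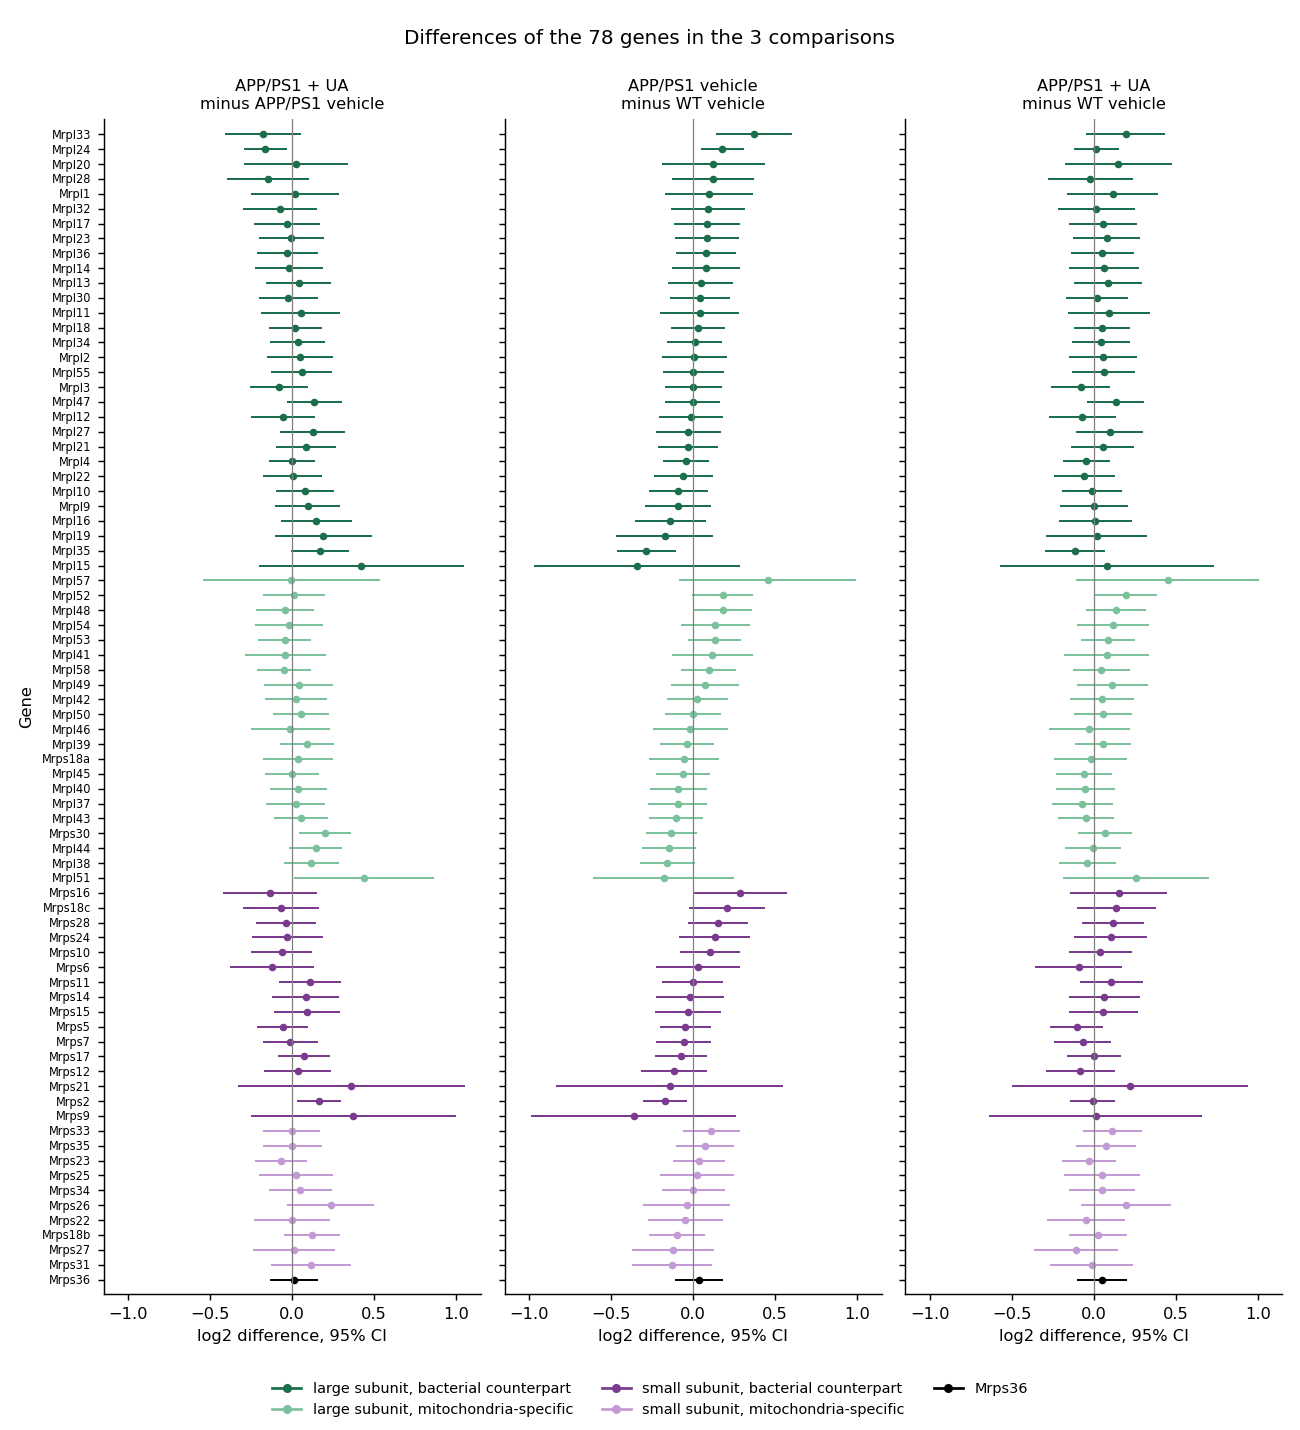
Log2 difference (x axis) with its 95% confidence interval for each of the 78 genes (y axis) in the 3 comparisons, coloured by subunit and by whether bacteria have a counterpart. Points cluster around 0 in every panel, and the widest intervals belong to Mrps9, Mrps21, Mrpl15, Mrpl57 and Mrpl51.

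The smallest p-values of the family were those of Mrpl33 and Mrpl35. Mrpl33, a small protein of the large subunit with a bacterial counterpart, read 4.31, 4.37 and 5.03 (lowest, median, highest) in APP/PS1 vehicle mice and 3.96, 4.15 and 4.19 in WT mice. The groups did not overlap, as was the case for 2 of the 78 genes (2.56%) and for 2.32% of all genes. The difference was 0.37 ± 0.11 (SE), or 1.29-fold, with an interval of 0.14 to 0.60 and an adjusted p of 0.0534 by limma. APP/PS1 vehicle replicate 3 gave the value of 5.03, and without that array the difference was 0.28 ± 0.08, with an adjusted p of 0.0465. Within slide 1, where 2 APP/PS1 vehicle arrays met 6 WT arrays, the difference was 0.22 ± 0.09 (adjusted p = 0.236 by limma).

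Mrpl35, another large-subunit protein of bacterial descent, lay in the opposite direction. It read -0.72, -0.46 and -0.30 in APP/PS1 vehicle mice and -0.36, -0.10 and -0.07 in WT mice, so the highest APP/PS1 vehicle arrays overlapped the lowest WT arrays. The difference was -0.28 ± 0.08 (SE), or 1.22-fold lower, with an interval of -0.46 to -0.11 and an adjusted p of 0.0508, the lowest of the family. Its probe lay in none of the deviating regions. With slide as a block the difference was -0.31 ± 0.13 (adjusted p = 0.26 by limma).

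The promoters of Mrpl33 and Mrpl35 are shown with that of Mrpl51, which is described further on. The windows run from 250 bases before to 50 bases after the transcript start, from RefSeq on GRCm38.p6, written 5′ to 3′ on the gene's strand. They cover chr5:31613701-31614000 on the plus strand for Mrpl33, chr6:71823735-71824034 on the minus strand for Mrpl35 and chr6:125191950-125192249 on the plus strand for Mrpl51. Capitals mark matches, on either strand, to 4 short motifs of factors known to act on promoters of mitochondrial genes: GCGC, any 2 bases and GCGC (NRF1), AAGATGG (YY1), CCGGAAG (ETS factors) and GGGCGG (SP1).
Mrpl33: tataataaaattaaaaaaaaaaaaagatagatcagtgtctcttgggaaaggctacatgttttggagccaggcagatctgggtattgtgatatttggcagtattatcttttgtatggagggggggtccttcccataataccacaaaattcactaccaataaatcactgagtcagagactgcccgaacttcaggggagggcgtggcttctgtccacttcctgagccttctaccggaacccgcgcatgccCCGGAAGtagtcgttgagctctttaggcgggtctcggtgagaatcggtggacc
Mrpl35: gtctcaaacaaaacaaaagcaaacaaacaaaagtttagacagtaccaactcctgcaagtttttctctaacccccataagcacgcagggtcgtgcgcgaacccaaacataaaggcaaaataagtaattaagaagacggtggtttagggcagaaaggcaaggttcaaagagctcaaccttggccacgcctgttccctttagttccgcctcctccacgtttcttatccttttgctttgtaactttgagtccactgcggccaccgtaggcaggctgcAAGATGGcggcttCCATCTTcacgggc
Mrpl51: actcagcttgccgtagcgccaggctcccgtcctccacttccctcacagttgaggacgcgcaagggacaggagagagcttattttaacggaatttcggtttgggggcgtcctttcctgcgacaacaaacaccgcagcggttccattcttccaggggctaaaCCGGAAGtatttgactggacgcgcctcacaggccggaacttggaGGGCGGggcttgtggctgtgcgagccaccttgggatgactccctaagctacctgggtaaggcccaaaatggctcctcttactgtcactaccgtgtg
Mrpl33 held 1 ETS match, from base 248 of the window, next to the transcript start. Mrpl35 held a pair of YY1 matches in opposite orientations, from bases 274 and 287. Mrpl51 held 1 ETS match from base 161 and 1 SP1 match from base 205. The windows of Mrpl24, Mrps2, Mrps30 and Mrps31, which are also named in this report and are not shown, held no match to any of the 4 motifs. A link between motifs and the direction of a difference was not tested.

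The table of promoters held 69 of the 78 genes. It had no entry for Mrpl4, Mrpl13, Mrpl15, Mrpl19, Mrpl38, Mrpl54, Mrps28, Mrps34 and Mrps35. The ETS motif was found in 26 of the 69 (37.7%), against 12.9% of 17492 protein-coding genes with a promoter in that table. NRF1 matches were found in 14 genes (20.3%, against 9.61%), YY1 matches in 13 (18.8%, against 7.18%) and SP1 matches in 34 (49.3%, against 49.2%). These motifs can overlap within a window, and 44 of the 69 genes held at least 1 match to NRF1, YY1 or ETS. That joint count was not made over all protein-coding genes, so it has no share to be set against. A match describes letters and does not show binding.

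Other small-p differences between APP/PS1 vehicle and WT mice were of similar or smaller size. Mrps2, a small-subunit protein of bacterial descent, read 1.43, 1.53 and 1.60 in APP/PS1 vehicle mice and 1.64, 1.68 and 1.82 in WT mice. All 7 APP/PS1 vehicle mice lay below all 6 WT mice, by a difference of -0.17 ± 0.06 (SE; adjusted p = 0.101 by limma). Its p fell under the threshold in a single alternative, with sex as a covariate (-0.20, adjusted p = 0.0486). Mrpl24, a large-subunit protein that in bacteria helps to start subunit assembly, read 2.66, 2.81 and 2.97 in APP/PS1 vehicle mice and 2.57, 2.63 and 2.71 in WT mice. The groups overlapped at 1 APP/PS1 vehicle array, and the difference was 0.18 ± 0.06 (adjusted p = 0.0842).

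Mrps16, a small-subunit protein of bacterial descent, differed by 0.29 ± 0.13 (SE), with its highest value, 4.58, on APP/PS1 vehicle replicate 3, and by 0.17 ± 0.09 without that array. The mitochondria-specific Mrpl48 and Mrpl52 differed by 0.18 ± 0.08 and 0.18 ± 0.09. Below 0, Mrpl38 and Mrpl44 of the large subunit differed by -0.16 ± 0.08 and -0.15 ± 0.07, and Mrps30 by -0.13 ± 0.07, which was -0.18 ± 0.06 without APP/PS1 vehicle replicate 3 (adjusted p = 0.0667). With every array, the adjusted p-values of these 6 genes ran from 0.19 to 0.271 by limma.

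Leaving out the spots in the deviating regions changed which genes passed. This was done after the data were seen, and 5 of the 78 genes then passed, against 5.79% of all genes. Mrpl33 passed as higher and Mrpl19, Mrpl35, Mrpl51 and Mrps31 as lower. Mrpl19, Mrpl51 and Mrps31 were singled out for that reason, after their values were seen. All 3 were among the genes whose WT replicate 1 spot lay in a deviating region, and all 3 were lower there than on any other WT array.

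Mrpl51, a mitochondria-specific large-subunit protein, read 4.35 to 4.55 on the 6 APP/PS1 vehicle arrays and 4.62 to 4.76 on the 5 WT arrays whose spot lay outside such a region. The spots inside read 3.42 on APP/PS1 vehicle replicate 3 and 3.44 on WT replicate 1. Without them the groups did not overlap, and the difference was -0.24 ± 0.07 (SE; adjusted p = 0.0455 by limma), against -0.18 with every spot. Mrps31, a mitochondria-specific small-subunit protein, read 1.708 to 1.999 in the 7 APP/PS1 vehicle mice and 2.06 to 2.19 on 5 WT arrays, with 1.301 on WT replicate 1. Without that last spot the difference was -0.26 ± 0.06 (adjusted p = 0.0202). Mrpl19, of bacterial descent, read 0.12 to 0.56 on the 6 APP/PS1 vehicle arrays outside the region and 0.47 to 0.74 on 5 WT arrays, with -0.29 on WT replicate 1. Its difference without the region spots was -0.35 ± 0.09 (adjusted p = 0.0394).

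These calls did not hold once slide was also fitted. Fitting slide as a block after leaving out the region spots, 0 of 78 passed, and 8 had an unadjusted p under 0.05 (limma). The differences kept their direction at -0.26 ± 0.09 (SE) for Mrpl51, -0.24 ± 0.09 for Mrps31 and -0.35 ± 0.14 for Mrpl19, with adjusted p-values of 0.197 to 0.228. Over all genes, 82 passed in that fit, against 1481 with the region spots left out and no slide term.

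**Figure D4:**
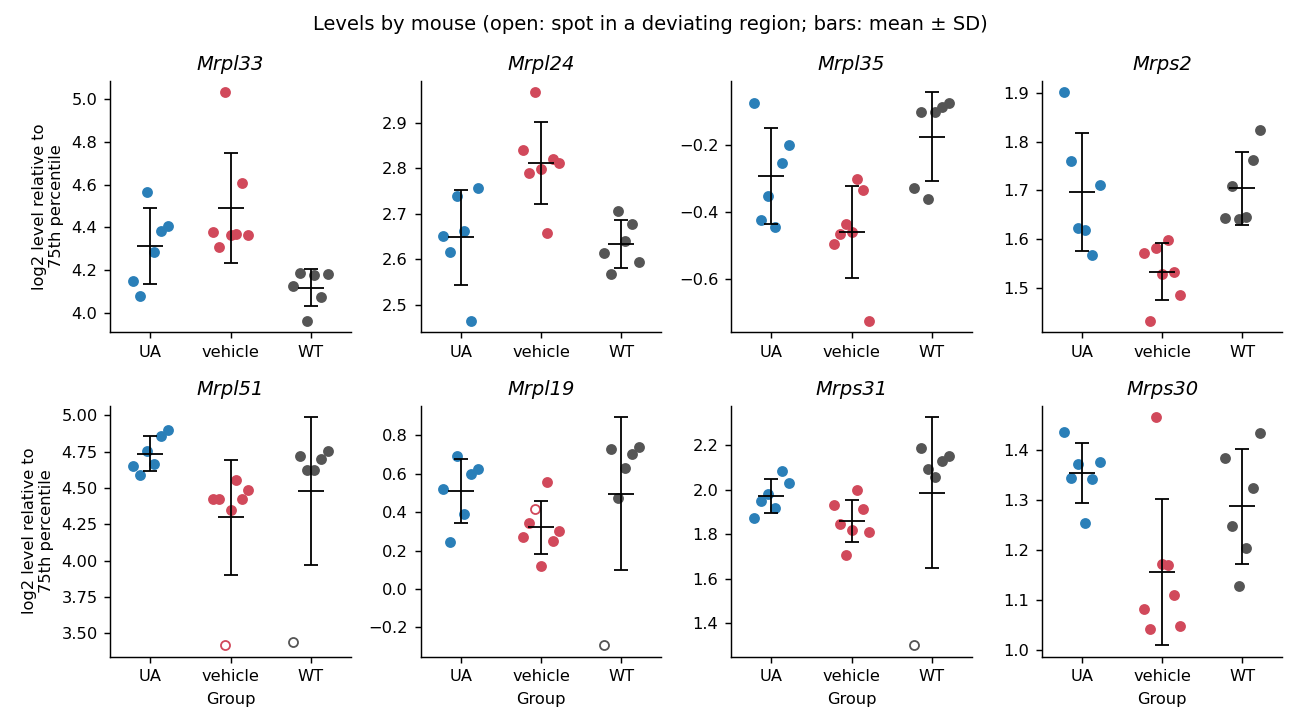
Log2 level relative to the array's 75th percentile (y axis) of 8 genes in APP/PS1 mice on UA, APP/PS1 mice on vehicle and WT mice (x axis), with 1 point per mouse, open where the spot lay in a deviating region, and the mean ± SD over all points. Outside such regions, APP/PS1 vehicle values of Mrpl33 lie above those of WT, and those of Mrpl51, Mrps2 and Mrps31 below.

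APP/PS1 mice on UA were compared with APP/PS1 mice on vehicle to ask what differs with the compound. None of the 78 genes passed, and none of the 25599 genes tested did either (0% by limma). At an unadjusted p under 0.05 there were 4 of the 78 genes (5.13%), 3 higher and 1 lower, against 15.5% of all genes. The median difference was 0.02, against -0.01 over all genes, and 48 genes were above 0. Large-subunit genes had a median of 0.02 (32 of 51 above 0) and small-subunit genes 0.02 (15 of 26 above 0). With no slide term, the interval lay within 1.5-fold for 74 of the 78 genes and within 2-fold for 76.

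The balance of signs depended on which array was left out, with 37 to 67 of the 78 genes above 0. Without APP/PS1 vehicle replicate 3, 67 were above 0 with a median of 0.08, and still none passed (lowest adjusted p = 0.0884, limma). In that fit 11 of the 78 had an unadjusted p under 0.05, against 18.3% of all genes. Without APP/PS1 vehicle replicate 7, 37 were above 0 and 41 below, with a median of -0.004. Without APP/PS1 vehicle replicate 2 there were 39 on each side, with a median of 0.0023. Within slide 2, which held 3 UA and 5 APP/PS1 vehicle arrays, 33 were above 0 and the median was -0.03. The sign of the median therefore differed between these settings.

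Mrpl51 was the gene whose UA and APP/PS1 vehicle mice did not overlap, 1 of the 78 (1.28%) against 0.848% of all genes. It read 4.59, 4.71 and 4.90 in UA mice and 3.42, 4.43 and 4.55 in APP/PS1 vehicle mice. The difference was 0.44 ± 0.20 (SE), or 1.36-fold, with an interval of 0.02 to 0.86 (adjusted p = 0.307 by limma), and 0.29 ± 0.06 without the region spots (adjusted p = 0.0918). Within slide 2 it was 0.42 ± 0.26 with every spot, and with slide as a block and the region spots left out it was 0.21 ± 0.08 (adjusted p = 0.494).

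Mrps30, a large-subunit protein despite its name, read 1.25, 1.36 and 1.44 in UA mice and 1.04, 1.11 and 1.47 in APP/PS1 vehicle mice. The value of 1.47 came from APP/PS1 vehicle replicate 3, and the other 6 vehicle mice lay below all 6 UA mice. The difference was 0.20 ± 0.07 (SE; adjusted p = 0.217 by limma), and 0.25 ± 0.06 without that array (adjusted p = 0.0884). Mrps2 read 1.57, 1.67 and 1.90 in UA mice and 1.43, 1.53 and 1.60 in APP/PS1 vehicle mice, overlapping, with a difference of 0.16 ± 0.06 (adjusted p = 0.22). Mrpl35 and Mrpl44 differed by 0.17 ± 0.08 and 0.14 ± 0.07 (adjusted p = 0.333 and 0.364).

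On the lower side, Mrpl24 read 2.47, 2.66 and 2.76 in UA mice and 2.66, 2.81 and 2.97 in APP/PS1 vehicle mice. The difference was -0.16 ± 0.06 (SE; adjusted p = 0.217 by limma), and the groups overlapped. Mrpl33 read 4.08, 4.34 and 4.56 in UA mice and 4.31, 4.37 and 5.03 in APP/PS1 vehicle mice, a difference of -0.18 ± 0.11 (adjusted p = 0.43). Mrpl28, Mrps6 and Mrps16 differed by -0.14 ± 0.12, -0.12 ± 0.12 and -0.14 ± 0.13, with Mrps16 at -0.01 ± 0.09 without APP/PS1 vehicle replicate 3. The genes named here share their vehicle mice with the comparison to WT, so the opposite signs of Mrpl24, Mrpl33, Mrpl35, Mrps2 and Mrps30 in these comparisons are no separate result.

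UA mice and WT mice, which lay on different slides throughout, differed in no gene of the family past the threshold, while 0.0898% of all genes passed, all of them higher (limma). At an unadjusted p under 0.05 there was 1 of the 78 genes (1.28%), against 8.65% of all genes. The median difference was 0.05, with 53 genes above 0, against -0.01 over all genes. With no slide term, the interval lay within 1.5-fold for 73 of the 78 genes. Mrpl52, a mitochondria-specific large-subunit protein, was the gene at an unadjusted p under 0.05. It read 3.71, 3.91 and 4.14 in UA mice and 3.61, 3.74 and 3.90 in WT mice, overlapping, with a difference of 0.19 ± 0.09 (SE; adjusted p = 0.567).

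Of the genes above 0 with the next smallest p, Mrpl33 differed by 0.19 ± 0.11 (SE), Mrpl47 by 0.13 ± 0.08 and Mrpl48 by 0.14 ± 0.08. Mrpl57, a mitochondria-specific large-subunit protein, differed by 0.45 ± 0.26, a value that rests on WT replicate 1, where it read 1.76 against 3.64 to 3.91 on the other WT arrays, and was 0.12 ± 0.10 without it. Below 0, Mrpl35, Mrps5, Mrps27, Mrpl3 and Mrps7 differed by -0.12 ± 0.08, -0.11 ± 0.07, -0.11 ± 0.12, -0.08 ± 0.08 and -0.07 ± 0.08. With slide as a block, which links UA and WT only through vehicle arrays, 27 of the 78 genes were above 0 and the median was -0.07.

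Several members with roles beyond the ribosome's core were followed in every comparison. Mrpl12, which also binds the mitochondrial RNA polymerase, differed by -0.06 ± 0.09 (SE) between UA and APP/PS1 vehicle mice and by -0.01 ± 0.09 between APP/PS1 vehicle and WT mice. Mrpl58, a peptidyl-tRNA hydrolase that rescues stalled ribosomes, differed by -0.05 ± 0.08 and 0.10 ± 0.08 in the same comparisons. Mrpl41, also reported to act in cell death and growth arrest, differed by -0.04 ± 0.11 and 0.12 ± 0.11. Mrps5, studied for its link to mouse lifespan, differed by -0.06 ± 0.07 and -0.05 ± 0.07. None of these 4 genes passed in any comparison, and between UA and WT mice their differences ran from -0.11 (Mrps5) to 0.08 (Mrpl41).

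The 3 paralogues of bacterial S18 occupy different places in the ribosome. Mrps18c, the small-subunit counterpart, differed by -0.07 ± 0.11 (SE) between UA and APP/PS1 vehicle mice and by 0.21 ± 0.11 between APP/PS1 vehicle and WT mice. Mrps18b, at another site of the small subunit, differed by 0.12 ± 0.08 and -0.10 ± 0.08, and Mrps18a, in the large subunit, by 0.04 ± 0.10 and -0.06 ± 0.10. The difference among the paralogues was not tested. Mrps36, the dehydrogenase subunit, differed by 0.01 ± 0.07 and 0.04 ± 0.07.

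Of the 21 genes with more than 1 kept probe, all probes agreed in sign for 14 between UA and APP/PS1 vehicle, 16 between APP/PS1 vehicle and WT and 15 between UA and WT. The probes of Mrpl38, Mrpl58, Mrps5, Mrps9, Mrps21, Mrps22 and Mrps33 disagreed between UA and APP/PS1 vehicle. Those of Mrpl1, Mrpl27, Mrps21, Mrps23 and Mrps33 disagreed between APP/PS1 vehicle and WT, and those of Mrpl9, Mrpl15, Mrpl22, Mrps5, Mrps9 and Mrps18b between UA and WT. The brightest probe stood for the gene in the values above.

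Few other genes of the pathway passed. The ribosomal subunits without an Mrp symbol are Dap3, Aurkaip1, Chchd1, Ptcd3 and Gadd45gip1, and none of the 5 passed in any comparison with every array. Without APP/PS1 vehicle replicate 3, 1 of the 5 fell between APP/PS1 vehicle and WT (20%, against 6.27% of all genes). Dap3, a GTP-binding small-subunit protein, differed by 0.14 ± 0.08 (SE) between UA and APP/PS1 vehicle mice and by -0.17 ± 0.08 between APP/PS1 vehicle and WT mice. Of 26 genes for assembly of the mitochondrial ribosome, 1 passed between APP/PS1 vehicle and WT mice with every array (3.85%, against 5.03% of all genes). Dhx30, an RNA helicase of mitochondrial RNA granules, fell to 4.45, 4.63 and 4.82 in APP/PS1 vehicle mice, against 4.68, 4.91 and 5.001 in WT mice, with a difference of -0.25 ± 0.07 (adjusted p = 0.0458 by limma). With slide as a block it was -0.27 ± 0.10 (adjusted p = 0.211), and without both deviating arrays -0.25 ± 0.08 (adjusted p = 0.0612). In UA mice it read 4.56, 4.63 and 4.83, which differed from WT by -0.22 ± 0.07 (adjusted p = 0.411). Without APP/PS1 vehicle replicate 3, 2 of the 26 assembly genes fell between APP/PS1 vehicle and WT (7.69%, against 6.27% of all genes). None of the 26 passed there without WT replicate 1 as well, or with slide as a block.

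Of 17 translation factors and related genes, 20 mitochondrial aminoacyl-tRNA synthetases and their partners, and 9 genes of mitochondrial DNA replication and transcription, none passed in any comparison with every array. Without APP/PS1 vehicle replicate 3, 1 translation factor fell between APP/PS1 vehicle and WT mice (5.88%, against 6.27% of all genes). Between UA and APP/PS1 vehicle mice, 6 of the 17 translation factors had an unadjusted p under 0.05 (35.3%, against 15.5% of all genes), and 1 with slide as a block (5.88%, against 8.38%). Without APP/PS1 vehicle replicate 3 the count was 4 (23.5%, against 18.3%), and without WT replicate 1 as well it was 6 (35.3%, against 19.3%). The initiation factor Mtif2 differed by -0.62 ± 0.19 (SE; adjusted p = 0.168 by limma) and Mss51, known from yeast as a translational activator, by -0.56 ± 0.14 (adjusted p = 0.124). Mtif2 read 3.85, 4.35 and 4.61 in UA mice and 4.55, 4.71 and 5.85 in APP/PS1 vehicle mice, overlapping. Between APP/PS1 vehicle and WT mice, the RNA stability factor Slirp differed by 0.30 ± 0.09 (adjusted p = 0.0551).

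Cytosolic ribosomal protein genes, which build the ribosome outside mitochondria, were set beside the family. Between APP/PS1 vehicle and WT mice, 15 of 84 cytosolic ribosomal protein genes rose (17.9%, against 2.86% of all genes) and none fell. Of the 84, 80 were above 0 (95.2%, against 52.1% of all genes), and the median difference was 0.20. With slide as a block 1 of the 84 passed (1.19%, against 0.305% of all genes), 79 were above 0 and the median was 0.24. Without APP/PS1 vehicle replicate 3 the count that passed was 9 (10.7%, against 6.27% of all genes), with a median of 0.14. Between UA and APP/PS1 vehicle mice, 3 of the 84 were above 0 (3.57%, against 48.6% of all genes) with a median of -0.12. None passed (15 at an unadjusted p under 0.05, limma, 17.9% against 15.5% of all genes). Without APP/PS1 vehicle replicate 3, 16 were above 0 (19%, against 49.6% of all genes) and the median was -0.05. With slide as a block 25 were above 0 and the median was -0.04. Nuclear genes for subunits of oxidative phosphorylation, of which 81 were measured, had 3 higher and 3 lower past the threshold between APP/PS1 vehicle and WT mice (7.41%, against 5.03% of all genes), with a median of 0.04. None of the 81 passed with slide as a block, where the median was -0.03. Without APP/PS1 vehicle replicate 3, 3 rose and 9 fell (14.8%, against 6.27% of all genes). The difference between these lists was not tested.

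**Figure D5:**
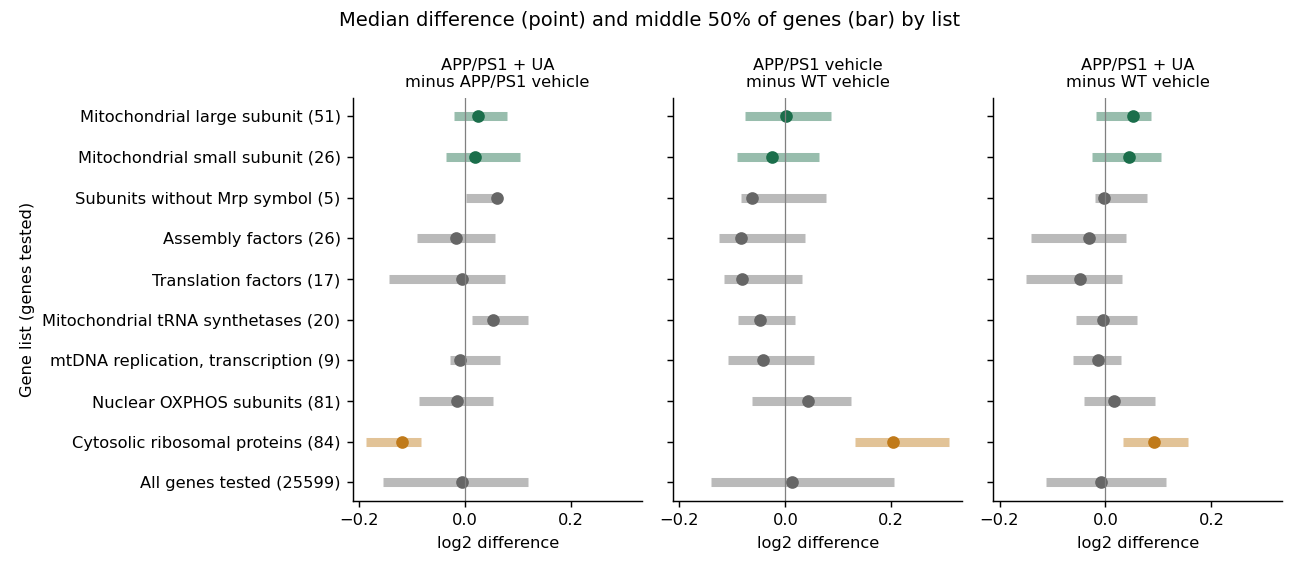
Median log2 difference (point) and the range of the middle 50% of genes (bar) on the x axis for each gene list on the y axis, with the number of genes tested, in the 3 comparisons. All arrays are included. Both mitochondrial subunits have medians between -0.02 and 0.05. Cytosolic ribosomal proteins have medians of -0.12 between UA and APP/PS1 vehicle, 0.20 between APP/PS1 vehicle and WT and 0.09 between UA and WT. Without APP/PS1 vehicle replicate 3 (not drawn), the first of these is -0.05 and the second 0.14.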

How the data were processed

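Each array's file gives intensity per spot, read with Agilent Feature Extraction 12.0.3.1 under a protocol for 2-colour arrays, per the file headers. The green processed intensity was background-subtracted and dye-normalized within each array by the authors' software, per the file headers, and red values were not used. The deposited value table is a score, the log10 of that intensity centred and scaled over each array's spots, which it matched to within 0.005. Its column medians ran from -0.28 to -0.17.

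Control and non-uniform spots were left out, spots of a probe were averaged, and log2 intensity was centred on each array's 75th percentile. Mrpl46 lacked 1 value for that reason, on UA replicate 6. Of several probes of a gene, the brightest stood for it. Accessions were named through a RefSeq table (GRCm38.p6), for 32994 of 56605 probes. A single fit over 19 arrays (limma 3.58.1, R 4.3.3) gave all 3 differences, 2-sided, with Benjamini-Hochberg adjustment over 25599 genes, and called genes at an adjusted p under 0.05. Precision is limited by how many arrays there are. The labels do not say that each array is a separate mouse beyond matching group sizes, so p-values measure the spread between these samples.

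Members and lists were chosen with earlier results of these data known. Named genes were, per comparison, those that passed or else the 5 positive and 5 negative differences of smallest p, up to 4 passing genes (or 2 of smallest p) of the pathway lists, 9 preset members, members whose probes disagreed and the gene at the median, of which 1 is not reported here. The files hold no mean signal column, so the normexp alternative used the median signal. Deviating regions were windows of 21 by 21 spots with an excess of spots more than 1 log2 unit from their median.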

Additional observations from a re-analysis of the deposited data

Results flagged for a closer look

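A Dixon test at the 95% level was run on 117 groups of values, those of 38 named genes and of the family mean in each group, and chance alone flags about 1 in 20. It marked 24 values. APP/PS1 vehicle replicate 3 held 16 of them. On it the family mean was high at 2.62, as were Mrpl12 (3.65), Mrpl22 (3.46), Mrpl33 (5.03), Mrpl37 (2.59), Mrpl41 (4.45), Mrps5 (0.859), Mrps16 (4.58), Mrps18a (3.07), Mrps18c (3.53), Mrps30 (1.47) and Mrps36 (2.72). Mrpl15 (-0.70), Mrps9 (-1.56), Mrps21 (1.55) and Mrpl51 (3.42) were low on it, and all 4 spots lay in that array's deviating region. WT replicate 1 held 5, all low: Mrpl15 (0.69), Mrpl51 (3.44), Mrps9 (0.18), Mrps21 (3.12) and Mrpl57 (1.77). The Mrpl57 spot lay outside the regions as they were drawn. The others were Mrpl3 on UA replicate 3 (2.17), Mrpl36 on UA replicate 2 (2.33) and Mrpl37 on WT replicate 3 (2.12). Over all 78 genes, 30 of 46 marked values lay on APP/PS1 vehicle replicate 3 and 9 on WT replicate 1.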

How the results depend on the processing

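No gene of the family passed between UA and APP/PS1 vehicle or between UA and WT under any alternative run. Between APP/PS1 vehicle and WT, where none passed in the reported fit, 1 passed with each array centred on probes detected everywhere (Mrpl33), 2 with normexp and quantile normalization (Mrpl24 and Mrpl33) or with probes well above background on all arrays (Mrpl33 and Mrpl35), and 3 with slide as a random block (Mrpl24, Mrpl33 and Mrpl35) or sex as a covariate (Mrpl33, Mrpl35 and Mrps2). Leaving out 1 array gave 0 to 3: Mrpl33 without APP/PS1 vehicle replicate 3, Mrpl24, Mrpl33 and Mrpl35 without APP/PS1 vehicle replicate 5, Mrpl19, Mrpl35 and Mrps31 without WT replicate 1, and Mrpl35 without WT replicate 3. Of the alternatives chosen after seeing the data, 5 passed without the spots of the deviating regions, with or without APP/PS1 vehicle replicate 3, and 4 without both arrays (Mrpl19, Mrpl35, Mrpl51 and Mrps31). None passed with slide as a block, within slide 1, with the deposited table, with no filter, with the mean of probes, with only 2 groups or without dye normalization. The count of all genes called between APP/PS1 vehicle and WT ran from 22 (0.0859%) within slide 1 to 2199 (8.59%) without WT replicate 3, against 1288 (5.03%). Over these alternatives 25 to 46 genes of the family were above 0 when 1 array was left out and 20 to 45 otherwise. The median difference between UA and WT turned to -0.0701 with slide as a block and -0.0973 with the region spots also left out. Same-numbered replicates were not taken as pairs. The correlation of their deviations passed 0.1 in 4 of 6 pairs between UA and APP/PS1 vehicle and in 2 of 6 in each other comparison (range -0.55 to 0.39). An array's best match bore its own number in 2 of 6 cases between UA and APP/PS1 vehicle and in 0 of 6 in each other comparison. With the replicate block no gene of the family passed. The medians were then 0.0339 between APP/PS1 vehicle and WT, -0.004 between UA and APP/PS1 vehicle and 0.0503 between UA and WT. The causes of these changes were not tested. Few arrays per slide that hold both groups limit every comparison of genotypes.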

Other observations

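Of 20 genes that load tRNAs for the mitochondrial ribosome, none passed between UA and APP/PS1 vehicle mice (4 at an unadjusted p under 0.05, limma, 20% against 15.5% of all genes). Of them, 16 were above 0 (80%, against 48.6% of all genes), with a median difference of 0.05, and 15 without APP/PS1 vehicle replicate 3 or with slide as a block. Wars2, the tryptophan enzyme, differed by 0.29 ± 0.09 (SE; adjusted p = 0.161) and Hars2, the histidine enzyme, by -0.23 ± 0.07 (adjusted p = 0.18). Between APP/PS1 vehicle and WT mice 7 of the 20 were above 0 (35%, against 52.1% of all genes), with a median of -0.05. There Nars2, the asparagine enzyme, differed by -0.30 ± 0.11 (adjusted p = 0.111). These comparisons share the APP/PS1 vehicle mice.

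Of the assembly genes, Tfb1m, which methylates the small ribosomal RNA, differed by 0.18 ± 0.07 (SE) and Ngrn by 0.21 ± 0.08 between UA and APP/PS1 vehicle mice (adjusted p = 0.217 and 0.236 by limma). Malsu1, which binds the large subunit during its assembly, differed by 0.23 ± 0.08 between UA and WT mice (adjusted p = 0.447). The elongation factor Guf1 differed by 0.25 ± 0.09 between APP/PS1 vehicle and WT mice (adjusted p = 0.0938).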
